A study of Rattus norvegicus with 25 samples.

Results

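Mature sperm of morphine-exposed and saline-exposed male rats collected without abstinence were compared here, in 14 of the 25 small RNA libraries of the series. The 7 F0_MOR and 7 F0_SAL males were Sprague-Dawley rats that pressed a lever for intravenous morphine, at a dose of 0.75 mg/kg/infusion, or for saline, in daily sessions of 3 h over 60 days. Sperm was taken at the end of this period from the cauda epididymis, where mature sperm are stored, and was purified by a double swim-up, which selects motile cells. The labels call each library a biological replicate and give no age. The other 11 libraries came from males killed after 90 days of abstinence, 6 with morphine (F0_ABS-MOR) and 5 with saline (F0_ABS-SAL), and they entered the shared statistical model and the closing comparison of the timepoints. The question was whether small RNAs of sperm differ at the end of chronic morphine intake, over families of miRNAs and classes of ncRNA as well as single transcripts.

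MicroRNAs (miRNAs) are short RNAs that lower the output of mRNAs matching their seed, the run of bases 2 to 8 at the 5′ end, so miRNAs with the same seed share many predicted targets. Sperm carry few ribosomes and little transcription, and their small RNAs come partly from spermatogenesis and partly from vesicles released by the epithelium of the epididymis. Of the other classes counted here, rRNA and snRNA reads are fragments of ribosomal and spliceosomal RNAs, snoRNAs guide the modification of other RNAs, Mt_rRNA is the ribosomal RNA of mitochondria, misc_RNA is a mixed class, and lincRNAs are long transcripts without a protein product.

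Reads counted on mature miRNAs numbered 1157748 to 3203211 in F0_SAL and 1032386 to 2234951 in F0_MOR, and at the group medians 3 reads were 0.000176% and 0.000210% of them, a floor that covers counting error only. On Ensembl ncRNAs, with rows of identical counts taken once, there were 2047943 to 6198331 and 1303179 to 3727033. The label of sperm was checked with 28 miRNAs of the male germ line, 25 of them tested. They took 42.2% to 60.8% of the miRNA counts in F0_SAL (median 52.3%) and 39.5% to 49.96% in F0_MOR (median 48.3%). Most of this was rno-miR-34c-5p, which alone took 35.03% to 53.6% in F0_SAL and 30.9% to 43.4% in F0_MOR. Listed markers of other cells were also counted, and whether such cells were their source was not tested. The neural list is led by rno-miR-7a-5p, which is among the most abundant miRNAs of these libraries. That list took 11.2% to 19.4% (median 18.9%) in F0_SAL and 11.5% to 20.6% (median 15.97%) in F0_MOR. Muscle markers took 1.08% to 1.62% (median 1.28%) and 1.27% to 1.64% (median 1.44%). Leukocyte markers took 0.373% to 0.567% (median 0.478%) in F0_SAL and 0.463% to 0.655% (median 0.540%) in F0_MOR. Epithelial markers took 0.583% to 1.12% (median 0.697%) and 0.767% to 1.21% (median 0.998%). The erythroid list took 0.0706% to 0.211% (median 0.0991%) in F0_SAL and 0.0959% to 0.217% (median 0.148%) in F0_MOR. For the endothelial list the shares were 0.0442% to 0.0743% (median 0.0523%) and 0.0559% to 0.0740% (median 0.0630%). In such bulk samples, fewer cells of a type and less of its RNA per cell cannot be told apart.

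The mature sequences of the miRNAs on which the comparison turns are shown 5′ to 3′ with the seed in capitals. They are taken from RefSeq (GRCr8). The first 8 are the miRNAs with a sequence there whose difference had the smallest p, the next 3 share the let-7 seed with rno-let-7e-5p, and the last 2 are the most abundant miRNAs of these libraries.
rno-miR-652-3p: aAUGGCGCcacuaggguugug
rno-miR-31a-5p: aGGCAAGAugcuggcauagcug
rno-let-7e-5p: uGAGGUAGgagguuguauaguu
rno-miR-423-5p: uGAGGGGCagagagcgagacuuuu
rno-miR-30e-5p: uGUAAACAuccuugacuggaag
rno-miR-125b-2-3p: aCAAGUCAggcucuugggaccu
rno-miR-880-3p: uACUCCAUucauucugaguaga
rno-miR-340-5p: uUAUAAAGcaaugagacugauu
rno-let-7b-5p: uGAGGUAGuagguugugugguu
rno-let-7f-5p: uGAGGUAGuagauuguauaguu
rno-let-7g-5p: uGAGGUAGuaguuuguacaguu
rno-miR-34c-5p: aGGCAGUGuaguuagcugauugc
rno-miR-7a-5p: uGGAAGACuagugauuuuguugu

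Of 317 miRNAs tested, 0 (0%) were called between F0_MOR and F0_SAL when a call needed a Benjamini-Hochberg adjusted p under 0.1 as well as a log2 fold change beyond 0.58 either way (edgeR's quasi-likelihood test). An unadjusted p under 0.05 was reached by 16 miRNAs that were higher in F0_MOR (5.05%) and 7 that were lower (2.21%). DESeq2, given all 562 miRNAs with no filter on counts beforehand, gave 30 at that level and called 0. By its default, here and below, DESeq2 can leave transcripts of low mean count out of the adjustment of p. For 0 miRNAs (0%) did the 7 F0_MOR and 7 F0_SAL libraries lie apart without overlap. The median log2 fold change of all miRNAs was 0.06, with 178 higher and 139 lower, and with each library left out in turn 144 to 184 were higher. This balance depends on the scaling. The libraries were scaled by TMM, which assumes that most miRNAs do not differ, and scaling by total count moved the median to 0.25 with 251 higher, while 1 TMM factor per library from both tables joined gave -0.01 with 155 higher. The miRNAs with an unadjusted p under 0.05 were 38 higher and 0 lower with total count, 13 and 9 with the joint factors, 15 and 12 with the size factors of DESeq2, and 16 and 1 with log2 total count as a covariate. Leaving out single libraries also moved them, to 29 and 14 without F0_SAL library H, 9 and 10 without F0_SAL library O, 8 and 9 without F0_SAL library W, 10 and 12 without F0_MOR library B and 9 and 6 without F0_MOR library M, so the excess of higher miRNAs did not hold throughout. Log2 fold changes given here are therefore to be read against the median of 0.06.

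Among the 16 higher miRNAs were rno-miR-150-5p, abundant in lymphocytes, rno-miR-151-5p, which lies in an intron of the focal adhesion kinase gene, and rno-miR-652-3p. The TMM-normalized count (scaled to the mean library size) of rno-miR-151-5p had a minimum of 262, a median of 409 and a maximum of 602 in F0_SAL, and 469, 723 and 1567 in F0_MOR. Of the F0_MOR libraries, 5 lay above the highest F0_SAL library, and the log2 fold change was 0.93 (standard error, SE, 0.27, edgeR adjusted p = 0.311). For rno-miR-652-3p, whose sequence is the first above, the counts were 49.5, 86.2 and 115 in F0_SAL and 93.7, 154 and 185 in F0_MOR. The groups overlapped in 1 F0_MOR library only, and the log2 fold change was 0.69 (SE 0.22, edgeR adjusted p = 0.391). rno-miR-150-5p stood at 109, 164 and 491 in F0_SAL and at 327, 431 and 634 in F0_MOR, with a log2 fold change of 0.92 (SE 0.26, edgeR adjusted p = 0.311). Its highest F0_SAL library, named by the letter H, lay above the F0_MOR median, and without it rno-miR-150-5p was called, with an adjusted p of 0.00408 from edgeR. It is one of the leukocyte markers, of which 6 of 9 tested miRNAs were higher and 3 lower with a median log2 fold change of 0.27, against 0.06 over all miRNAs. That distance of 0.22 was 0.040 over the 9 without F0_MOR library U. Over the other 8 markers it was 0.12, and -0.011 without F0_MOR library M. The part of leukocyte RNA in the difference of rno-miR-150-5p was not tested.

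rno-miR-31a-5p, a miRNA of epithelia and one of the epithelial markers, had the largest log2 fold change of the first 10 by p, 1.16 (SE 0.38, edgeR adjusted p = 0.391), from counts of 3.13, 8.15 and 21.4 in F0_SAL and 11.7, 22.6 and 48.9 in F0_MOR. These are low counts, and 4 F0_MOR libraries lay above the whole of F0_SAL. Of the 12 tested epithelial markers, 8 were higher and 4 lower, with a median of 0.15, and the part of epithelial RNA in this difference was not tested either. rno-let-7e-5p (log2 fold change 0.56, SE 0.21), rno-miR-423-5p (0.79, SE 0.29) and rno-miR-125b-2-3p (0.65, SE 0.25) followed, each with an adjusted p of 0.547 from edgeR. rno-let-7e-5p ran from 114 to 212 with a median of 154 in F0_SAL and from 128 to 376 with a median of 232 in F0_MOR. rno-miR-423-5p ran from 29.0 to 93.8 (median 56.1) and from 37.2 to 146 (median 88.5), and rno-miR-125b-2-3p, the minor strand of a miR-125b hairpin, from 80.3 to 252 (median 98.9) and from 119 to 391 (median 183). In all 3 the F0_MOR range began inside the F0_SAL range. The remaining higher miRNAs were rno-miR-222-3p (log2 fold change 0.69), rno-miR-181b-5p (0.60), rno-miR-490-3p (1.52), rno-miR-9a-3p (0.73), rno-miR-100-5p (0.57), rno-miR-201-5p (0.44), rno-miR-320-3p (0.72), rno-miR-339-5p (0.59) and rno-let-7b-5p (0.49). The largest of these, rno-miR-490-3p, rested on counts between 0 and 23.5.

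The 7 lower miRNAs were on the whole more abundant. rno-miR-30e-5p, of the miR-30 family, ran from 4707 to 8902 with a median of 6391 in F0_SAL and from 3606 to 6490 with a median of 3937 in F0_MOR. Of the F0_MOR libraries, 5 lay below the lowest F0_SAL library, and the log2 fold change was -0.47 (SE 0.18, edgeR adjusted p = 0.547). rno-miR-340-5p ran from 7029 to 13995 (median 10001) and from 6002 to 9091 (median 8231), so that no F0_MOR library reached the F0_SAL median, with a log2 fold change of -0.39 (SE 0.16). rno-miR-880-3p, from a cluster on the X chromosome that is expressed in the testis, ran from 120 to 300.4 (median 205) and from 80.7 to 176 (median 141), a log2 fold change of -0.58 (SE 0.24). Here too the 7 F0_MOR libraries lay below the F0_SAL median. The others were rno-miR-32-5p (log2 fold change -0.46), rno-miR-6329 (-0.70), rno-miR-471-5p (-0.37) of the same X-linked cluster, and rno-miR-101b-3p (-0.35).

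**Figure D1:**
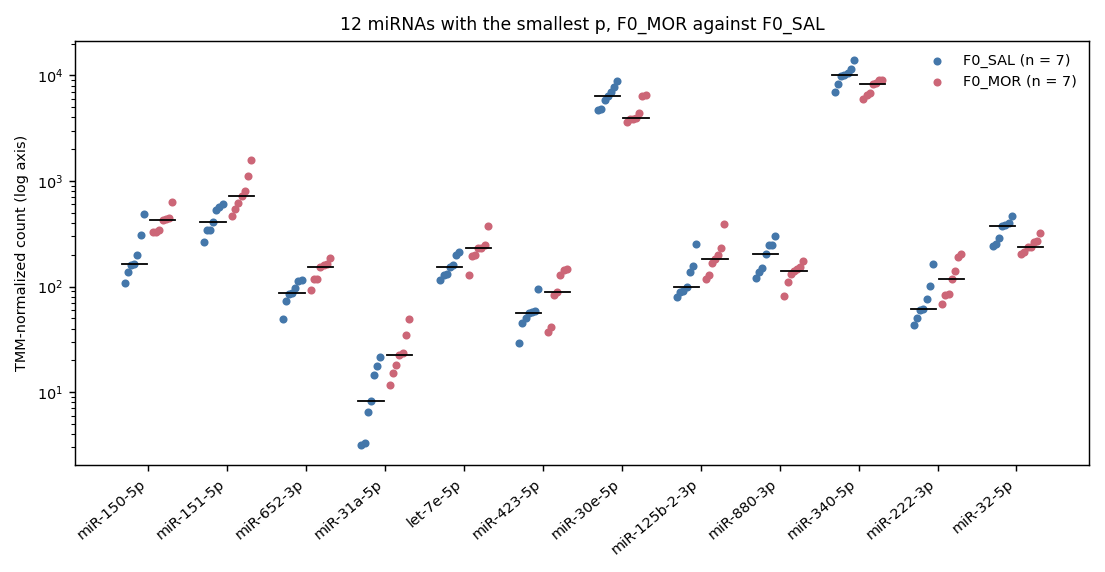
TMM-normalized counts on a log axis of 12 miRNAs, those leading by p, in the 7 F0_SAL libraries (blue) and the 7 F0_MOR libraries (red), with a black bar at each median. The points of both groups overlap for each miRNA shown, most narrowly for rno-miR-652-3p, with 6 of 7 F0_MOR libraries above the highest F0_SAL library.

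The 23 miRNAs with an unadjusted p under 0.05 were not shifted evenly over the libraries. Averaged over the 16 higher ones, a library's mean deviation in log2 CPM (the TMM-scaled share of the library) was between -0.72 in library W and 0.10 in library H among F0_SAL, and between -0.04 in library U and 0.69 in library M among F0_MOR. Over the 7 lower ones the deviation was highest in library O of F0_SAL (0.56) and lowest in library M of F0_MOR (-0.49). Libraries H and U thus stood nearest to the other group on both measures. As the 23 miRNAs were chosen by this comparison, these values describe them and carry no test.

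The miRNAs that make up most of the counts differed by less. rno-miR-34c-5p, made late in spermatogenesis, took 35.03% to 53.6% of the miRNA counts in F0_SAL (median 45.4%) and 30.9% to 43.4% in F0_MOR (median 41.1%). Its log2 fold change was -0.37 (SE 0.19, edgeR adjusted p = 0.623), and the 7 F0_MOR libraries lay below the F0_SAL median after TMM scaling. rno-miR-7a-5p followed with -0.25 (SE 0.21), and rno-miR-21-5p with -0.14 (SE 0.12). rno-miR-26a-5p (0.16), rno-let-7f-5p (0.12), rno-miR-148a-3p (0.11), rno-miR-30c-5p (-0.11), rno-miR-143-3p (-0.05), rno-miR-34b-3p (-0.05), rno-let-7g-5p (-0.05) and rno-miR-99a-5p (0.05) had log2 fold changes smaller than their SEs. By level, 68 of the 106 least abundant miRNAs were higher in F0_MOR with a median log2 fold change of 0.14, 62 of 105 in the middle with 0.07, and 48 of the 106 most abundant with -0.04.

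Counts were then summed over miRNAs with the same seed, which gave 232 tested families. Of these, 0 (0%) were called, 8 were higher (3.45%) and 7 lower (3.02%) at an unadjusted p under 0.05, with 27 and 0 under total count, and for 0 (0%) did the groups not overlap. DESeq2, given all 432 families with no filter on counts beforehand, also called 0, with 18 at that level. With single libraries left out the families at that level ran from 6 higher and 1 lower without F0_SAL library F to 26 and 7 without F0_SAL library H, and were 23 and 0 without F0_MOR library A and 11 and 0 without F0_MOR library M. The median over families was 0.01, with 118 higher and 114 lower, and under total count it was 0.24 with 185 higher. The families with the smallest p mostly held a single tested miRNA and so repeated the values above: AUGGCGC (rno-miR-652-3p, log2 fold change 0.64), GGCAAGA (rno-miR-31a-5p, 1.08), CAAGUCA (rno-miR-125b-2-3p, 0.64), GAGGGGC (rno-miR-423-5p, 0.74), ACUCCAU (rno-miR-880-3p, -0.65), UAUAAAG (rno-miR-340-5p, -0.45), AUGUGAC (rno-miR-6329, -0.74), ACGUAGU (rno-miR-471-5p, -0.42), AACCUGG (rno-miR-490-3p, 1.45) and UAAAGCU (rno-miR-9a-3p, 0.68). Each had an adjusted p of 0.667 from edgeR.

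Of the 10 families with 3 or more tested members, 5 were higher and 5 lower, and GGCAGUG alone was under an unadjusted p of 0.05. This is the seed of rno-miR-34a-5p, rno-miR-34b-5p, rno-miR-34c-5p and rno-miR-449a-5p, with summed counts of 674453 to 1502025 (median 1036340) in F0_SAL and 508777 to 912200 (median 786027) in F0_MOR. The 7 F0_MOR libraries lay below the F0_SAL median and 2 below its lowest library, with a log2 fold change of -0.42 (SE 0.20, edgeR adjusted p = 0.667). The sum is dominated by rno-miR-34c-5p. With total count, or without F0_MOR library A or M, 0 families were lower at an unadjusted p under 0.05. GGCAGUG thus did not stay under that level in these settings. The let-7 seed GAGGUAG, printed 4 times above, did not follow its rarer members rno-let-7e-5p and rno-let-7b-5p. Over its 9 tested members the summed counts were 98494 to 156586 (median 136995) in F0_SAL and 113106 to 149299 (median 140155) in F0_MOR, a log2 fold change of 0.04 (SE 0.14), and its abundant members rno-let-7g-5p and rno-let-7f-5p had -0.05 and 0.12. The other most abundant seeds were GGAAGAC of miR-7 (-0.29, SE 0.20), AGCUUAU of rno-miR-21-5p (-0.18, SE 0.13) and CAGUGCA of miR-148 and miR-152 (0.06, SE 0.20).

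Families and genomic clusters were next described by their members, both strands counted. Of all 317 miRNAs 56.2% were higher, and several groups lay further to one side, with 1 or 0 members under an unadjusted p of 0.05 where not said otherwise, and 0 called. In the let-7 family, which restrains growth and keeps cells differentiated, 9 of 14 (64.3%) were higher, a share near that of all miRNAs, with a median log2 fold change of 0.26. Without F0_SAL library O the median lay 0.037 above that of all miRNAs, against 0.20 with it. The 2 members under an unadjusted p of 0.05 were rno-let-7e-5p and rno-let-7b-5p. The miR-10, miR-99 and miR-100 family, which lies partly in the Hox clusters, had 8 of 8 higher (median 0.22), from 0.03 to 0.57 in rno-miR-100-5p. rno-miR-100-5p ran from 1050 to 2839 with a median of 1356 in F0_SAL and from 1484 to 4790 with a median of 2044 in F0_MOR, where 1 library lay above F0_SAL. The miR-125 and miR-351 group, often transcribed with let-7 and miR-99, had 5 of 5 higher (median 0.40), and its most abundant member rno-miR-125b-5p had 0.35 (SE 0.25). In the miR-181 family, active in lymphocytes and brain, 6 of 6 were higher (median 0.26), with rno-miR-181a-5p at 0.25 and rno-miR-181b-5p at 0.60.

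The miR-23, miR-27 and miR-24 cluster had 8 of 9 higher (median 0.36), led by rno-miR-23a-3p at 0.45 (SE 0.23) with rno-miR-27b-3p, its most abundant member, at 0.16. The miR-15 and miR-16 group, which slows the cell cycle, had 8 of 9 higher (median 0.24). Its rno-miR-322-5p had 1.09 (SE 0.54) from counts of 0 to 9.75, and its most abundant member rno-miR-16-5p had 0.09 (SE 0.21). In miR-221 and miR-222, 3 of 3 were higher (median 0.51), with rno-miR-222-3p under an unadjusted p of 0.05 and rno-miR-221-3p at 0.33 (SE 0.25). rno-miR-222-3p ran from 43.6 to 163 (median 61.8) in F0_SAL and from 69.0 to 203 (median 119) in F0_MOR. The miR-200 family, a mark of epithelia, had 6 of 7 higher (median 0.19), with rno-miR-200b-3p at 0.27 and rno-miR-429 at 0.28, and the miR-183 cluster 3 of 3 (median 0.26), with rno-miR-96-5p at 0.38 and rno-miR-182 at 0.26. Against the median of all miRNAs, which a scaling moves along with the families, the medians of these 9 families lay 0.13 (miR-200) to 0.45 (miR-221 and miR-222) higher, 0.11 to 0.46 higher with total count and 0.13 to 0.42 higher with the joint TMM factors. With each of the 14 libraries left out in turn the difference ran from 0.037 in let-7 to 0.61 in miR-125 and miR-351.

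Other families lay lower. In miR-17-92 and its relatives, a cluster that drives proliferation, 13 of 15 were lower with a median of -0.12. With total count the median was 0.10, which is 0.15 below that of all miRNAs under that scaling, against 0.17 below with TMM. Its rno-miR-19a-3p, at 839 to 1467 (median 1221) in F0_SAL and 712 to 1066 (median 901) in F0_MOR, had -0.36 (SE 0.18), the abundant rno-miR-25-3p had -0.06 (SE 0.24), and the exceptions were the minor strand rno-miR-25-5p at 1.28 and rno-miR-92a-3p at 0.39. In the miR-30 family 7 of 8 were lower (median -0.12, and 0.04 with total count), with rno-miR-30e-5p under an unadjusted p of 0.05. In the X-linked cluster of the testis 15 of 19 were lower (median -0.19, and 0.01 with total count), 2 of them under an unadjusted p of 0.05, rno-miR-880-3p and rno-miR-471-5p, while its most abundant member rno-miR-741-3p had -0.19 (SE 0.18). The cluster as a whole took 2.46% to 4.64% of the miRNA counts in F0_SAL (median 3.62%) and 2.62% to 4.45% in F0_MOR (median 3.48%), which overlap almost fully. The 25 germ line markers, made up of that cluster and the miR-34 and miR-449 members other than rno-miR-34a-5p, had 19 lower (median -0.15, and 0.05 with total count). miR-34 and miR-449 had 4 of 7 lower (median -0.05, and 0.14 with total count), and miR-103 and miR-107, linked to lipid metabolism and in other cells to an isoform of the mu opioid receptor, 2 of 2 (median -0.11, and 0.08 with total count), with rno-miR-103-3p at -0.10 and rno-miR-107-3p at -0.12. Although these 6 medians were above 0 with total count, they lay 0.11 to 0.24 below that of all miRNAs there, against 0.11 to 0.25 below with TMM, and with each library left out they lay 0.04 to 0.29 below. The germ line list reuses miRNAs of the X-linked and the miR-34 and miR-449 lists, so the 6 medians are not independent.

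The remaining groups were mostly split. miR-29 had 2 of 4 higher (median 0.06), with rno-miR-29a-3p at -0.09 and rno-miR-29b-3p at 0.14. miR-26 and miR-101 had 3 of 4 higher (median 0.11), the exception being rno-miR-101b-3p. miR-148 and miR-152 had 4 of 5 higher (median 0.06), with rno-miR-152-3p at 0.18, and with the joint TMM factors the medians of miR-29 and of miR-148 and miR-152 became -0.05 and -0.07. The X-linked neighbourhood of miR-547 had 6 of 9 higher (median 0.15), rno-miR-201-5p being under an unadjusted p of 0.05 and its most abundant member rno-miR-3580-3p at -0.25 (SE 0.23). In the imprinted Dlk1-Dio3 cluster 13 of 22 were higher (median 0.08), with rno-miR-127-3p at 0.32 and rno-miR-134-5p at 0.56 (SE 0.39). Among miRNAs known from sperm of stressed fathers, 4 of 12 were higher (median -0.11, and 0.07 with total count, 0.17 and 0.18 below that of all miRNAs) and rno-miR-32-5p was the single one under an unadjusted p of 0.05. This list thus leaned lower, by 0.046 to 0.26 against all miRNAs with each library left out. It reuses members of the miR-30 and miR-29 families and is not independent of them. Among miRNAs linked to opioid receptor signalling, which include the let-7 family, 15 of 25 were higher (median 0.14). The 3 under an unadjusted p of 0.05 were rno-let-7e-5p, rno-let-7b-5p and rno-miR-339-5p, against 5.05% of all miRNAs, and rno-miR-339-5p ran from 23.3 to 69.1 (median 32.8) in F0_SAL and from 37.6 to 80.6 (median 57.8) in F0_MOR.

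Markers of other cells were read in the same way. Erythroid markers had 2 of 3 higher (median 0.26), neural markers 5 of 8 (median 0.09), muscle markers 2 of 6 (median -0.09) and endothelial markers 0 of 2 (median -0.04). With total count the last 2 medians were 0.10 and 0.15, which lay 0.16 and 0.10 below that of all miRNAs, as with TMM (0.14 and 0.10 below).

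**Figure D2:**
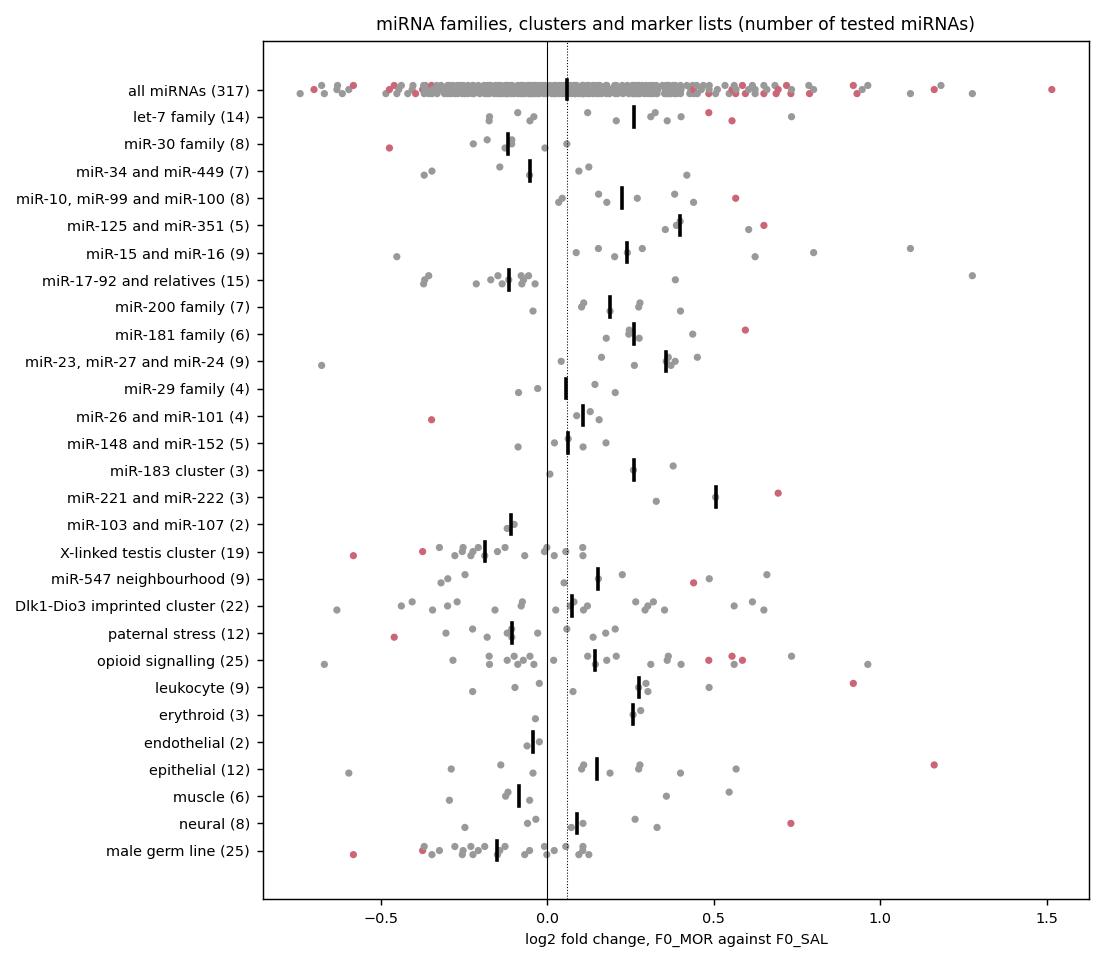
Log2 fold change of F0_MOR against F0_SAL for each tested miRNA (points, red at an unadjusted p under 0.05) of each family, cluster or marker list, with the number tested in brackets, a black bar at the list's median and a dotted line at the median of all 317 miRNAs (0.06). The points of the miR-125, miR-181 and miR-10 groups lie right of 0, and 15 of 19 points of the X-linked testis cluster lie left of it.

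The base composition of the miRNAs went along with the direction. Over the 294 tested miRNAs with a sequence, the log2 fold change and the share of G and C had a Spearman correlation of 0.27 (Pearson 0.30), given as a description, as miRNAs share libraries and are not independent. It was 0.26 with total count and 0.27 with the joint TMM factors. Of the 103 miRNAs with 22.7% to 40.9% GC, 46 were higher (median -0.04), and 2 were higher and 7 lower at an unadjusted p under 0.05. Of the 119 with 41.7% to 50% GC, 67 were higher (median 0.07), with 4 and 0. Of the 72 with 52.2% to 77.3% GC, 51 were higher (median 0.24), with 7 and 0. The 7 lower miRNAs all belonged to the first group. At the abstinent timepoint the medians of the same 3 groups were -0.04, -0.00136 and -0.07. The part of base composition in the differences of single miRNAs was not tested.

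Both strands of a hairpin can be loaded as mature miRNAs, and the log2 ratio of the 5p to the 3p strand was compared for 78 hairpins. With limma, 0 ratios differed at an adjusted p under 0.1, and 3 had an unadjusted p under 0.05. For miR-31a the log2 ratio ran from -1.13 to 1.00 with a median of 0 in F0_SAL and from 0.14 to 2.70 with a median of 1.32 in F0_MOR, a difference of 1.46 (SE 0.50, limma adjusted p = 0.348). For miR-151 it ran from -1.95 to -0.35 (median -0.93) and from -1.02 to 0.63 (median -0.24), a difference of 0.85 (SE 0.30, limma adjusted p = 0.348). In both hairpins the F0_MOR median lay further toward the 5p strand, within overlapping ranges. Their 5p strands, rno-miR-31a-5p and rno-miR-151-5p, were among the higher miRNAs above, so the ratios share counts with those values. The 3p strand rno-miR-31a-3p had a log2 fold change of -0.60 (unadjusted p = 0.359 from edgeR), so both strands enter the miR-31a ratio. The counts of rno-miR-31a-5p were low. With a mean of 50 counts required in both strands, 41 hairpins were tested, of which 2 had an unadjusted p under 0.05 and 0 were called. For miR-434 it was lower by 0.79 in F0_MOR (limma adjusted p = 0.422). Over all tested miRNAs the strands did not part, with 86 of 154 5p and 84 of 149 3p miRNAs higher.

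Turning to the ncRNA table, 0 of 409 tested rows (0%) were called between F0_MOR and F0_SAL, and the groups lay apart for 0 (0%). At an unadjusted p under 0.05, 5 rows were higher (1.22%) and 9 lower (2.2%) with edgeR. DESeq2, given all 2086 rows with no filter on counts beforehand, gave 38 at that level and called 1, the snoRNA named further on. Its default can leave rows of low mean count out of the adjustment. The median log2 fold change was 0.02 with 208 higher and 201 lower, against 0.39 with 330 higher under total count and 0.19 with 271 higher under the joint TMM factors. The rows under an unadjusted p of 0.05 moved with it, to 37 higher and 2 lower under total count and 25 and 7 under the joint factors. With single libraries left out they ran from 4 higher and 6 lower without F0_MOR library M to 23 and 9 without F0_SAL library H and 22 and 6 without F0_MOR library G, so neither direction prevailed throughout.

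By share of the ncRNA counts, mitochondrial rRNA was the largest class, at 78.5% to 91.1% in F0_SAL (median 84.0%) and 59.0% to 88.3% in F0_MOR (median 77.9%). Among the 9 classes tested, 0 differed at an adjusted p under 0.1 in two-sided exact permutation tests. misc_RNA came nearest, at 3.92% to 7.72% (median 5.43%) in F0_SAL and 5.52% to 10.1% (median 7.29%) in F0_MOR, with an exact p of 0.0216 and an adjusted p of 0.194. rRNA ran from 2.75% to 8.61% (median 5.10%) and from 3.16% to 22.7% (median 7.10%), the highest value being that of 1 F0_MOR library. snRNA ran from 2.09% to 7.23% (median 5.08%) and from 2.25% to 8.39% (median 6.54%). The small classes of lincRNA, processed_transcript, pseudogene, snoRNA and miRNA precursors, each with a median share of at most 0.343% in both groups, were likewise higher in the F0_MOR median, and shares of one total are not independent of each other. With mitochondrial rRNA left out, the exact p of misc_RNA was 0.959 (33.96% against 35.5% at the medians), and the smallest p was 0.117, for snRNA (31.7% against 25.9%).

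**Figure D3:**
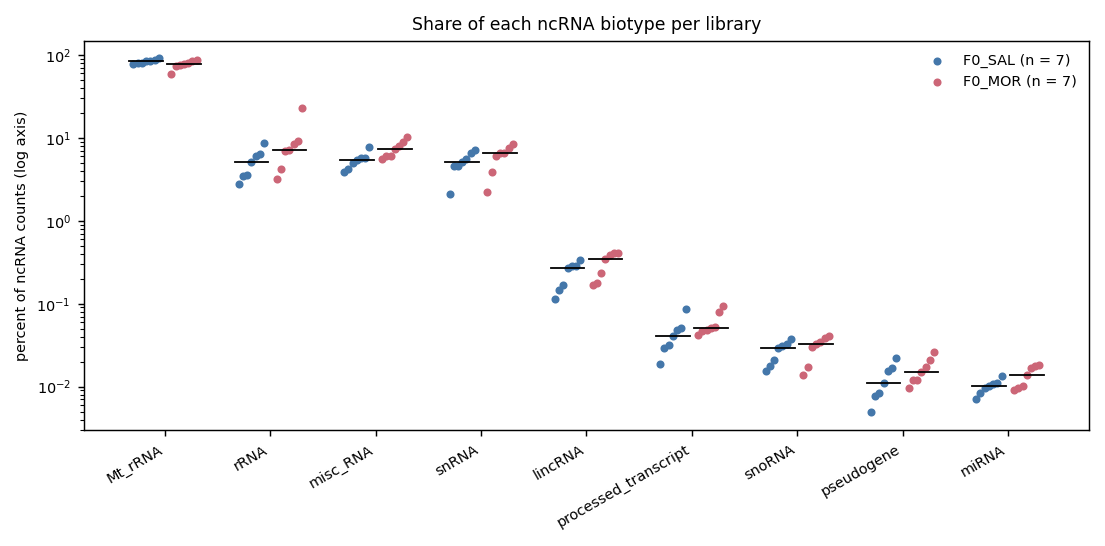
Share of the ncRNA counts (percent, log axis) taken by each of the 9 tested classes in the 7 F0_SAL (blue) and 7 F0_MOR (red) libraries, with a black bar at each median. The ranges overlap in each class, with the misc_RNA median at 5.43% in F0_SAL and 7.29% in F0_MOR.

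Within classes, rRNA rows were higher in 53 of 74 cases with a median log2 fold change of 0.17, and snoRNA rows lower in 11 of 13 with a median of -0.22. Since a scaling moves all rows together, the medians are also read against that of all rows. The snoRNA median lay 0.24 below it, 0.19 below with total count and 0.22 below with the joint TMM factors, although with total count it was itself above 0 (0.21, with 8 of 13 higher). The rRNA median lay 0.15 above that of all rows and 0.16 above with total count, but without F0_MOR library N it lay 0.04 below. lincRNA had 58 of 127 higher (median -0.02), misc_RNA 29 of 70 (median -0.09), processed_transcript 36 of 64 (median 0.04) and miRNA precursors 7 of 16 (median -0.09), with all 4 medians above 0 under total count and the joint TMM factors. The 2 mitochondrial rRNA rows were both lower, with ENSRNOT00000069133.1 running from 1844267 to 3974480 (median 2075363) in F0_SAL and from 959482 to 2811782 (median 1647761) in F0_MOR, a log2 fold change of -0.47 (SE 0.24, edgeR adjusted p = 0.881). ENSRNOT00000040038.3, the other row, had -0.54. The median of the 2 rows was -0.51, against -0.15 with total count and -0.41 with the joint TMM factors. With each library left out it ran from -0.73 to -0.20. Against the median of all rows it lay 0.52 below, and 0.55 below with total count.

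Many rows carry nearly the same counts as another row of their class and are not independent. When rows of the same class whose counts differed in sum by under 10% were taken as 1 set, the 409 rows came down to 305 sets, the 74 rRNA rows to 48 and the 37 snRNA rows to 17. With 1 row kept per set and the test run again, rRNA had 27 of 48 higher with a median of 0.04, against 53 of 74 before. Of 12 snoRNA rows tested then, 1 of which had not passed the filter before, 10 were lower (median -0.38). The snRNAs, parts of the spliceosome, lay in sets on both sides of 0 with TMM. There 1 row per set, chosen before the filter, gave 12 of 18 higher (median 0.72) in place of 19 of 37 (median 0.05). Under total count 29 of the 37 rows were higher (median 0.51), and under the joint TMM factors 20 (median 0.27). An abundant set of 8 rows around ENSRNOT00000083077.1, at mean counts of 13383 to 16702, had log2 fold changes of -0.36 to -0.22, and the most abundant row ENSRNOT00000077425.1, which stands for 11 identical copies, had -0.10 (SE 0.20). Another set of 8 rows around ENSRNOT00000077081.1, at 731 to 743, had 0.68 to 0.69. The rows ENSRNOT00000085457.1, ENSRNOT00000085153.1 and ENSRNOT00000079930.1, at mean counts of 95.5 to 123, had 0.90, 0.89 and 0.89, and the last 2 of these are near copies. ENSRNOT00000085457.1 ran from 31.0 to 164 (median 82.9) in F0_SAL and from 87.4 to 294 (median 137) in F0_MOR, and the 7 F0_MOR libraries lay above the F0_SAL median. Its SE was 0.34 and its adjusted p 0.881 from edgeR. The ncRNA table gives no gene names, and none is given here.

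**Figure D4:**
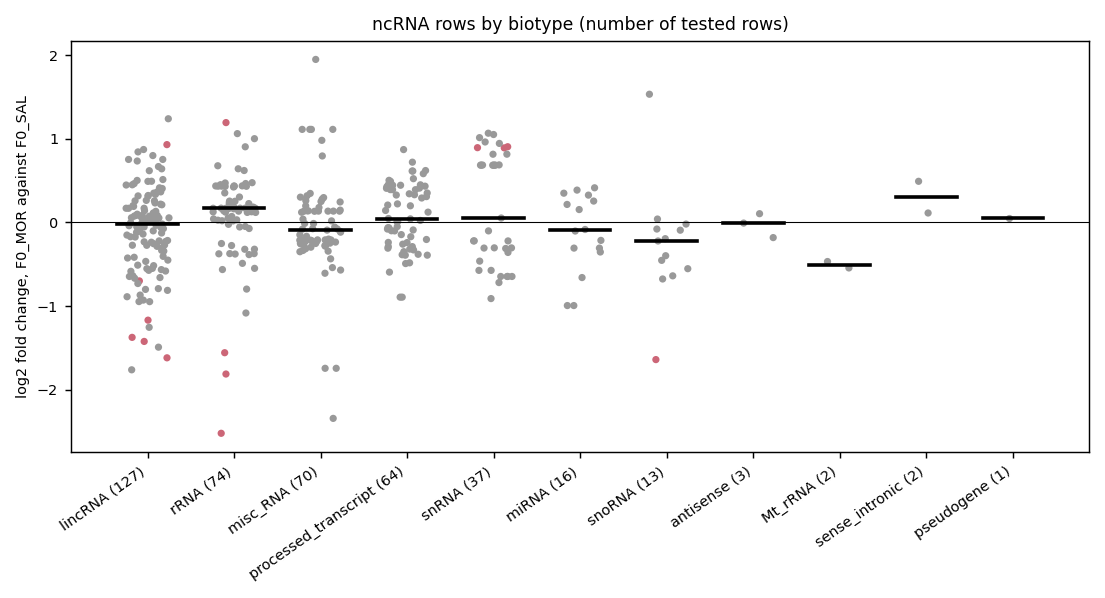
Log2 fold change of F0_MOR against F0_SAL for the 409 tested ncRNA rows by class (points, red at an unadjusted p under 0.05), with a black bar at the median of each class and the number of rows in brackets. The snRNA rows lie in blocks above and below 0, and 11 of 13 snoRNA rows lie below it.

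Among single ncRNAs the snoRNA ENSRNOT00000083185.1 came first by p. Its normalized count ran from 16.3 to 84.8 with a median of 44.9 in F0_SAL and from 5.64 to 29.6 with a median of 15.6 in F0_MOR, where 4 libraries lay below the whole of F0_SAL. The log2 fold change was -1.64 (SE 0.42, adjusted p = 0.165 from edgeR and 0.0336 from DESeq2). Of the other lower rows, the rRNA ENSRNOT00000069393.1 ran from 2.40 to 32.7 (median 12.6) and from 0 to 4.61 (median 2.40), with a log2 fold change of -2.52 (SE 0.77, edgeR adjusted p = 0.508). ENSRNOT00000069362.2, also rRNA, had -1.56, and the lincRNAs ENSRNOT00000087128.1, ENSRNOT00000086733.1 and ENSRNOT00000085430.1 had -1.17, -1.62 and -1.37. ENSRNOT00000087128.1 ran from 14.7 to 43.7 (median 25.2) and from 4.92 to 21.99 (median 9.73), with 5 F0_MOR libraries below F0_SAL. These 5 rows rest on counts of at most 61.9 and had adjusted p-values from 0.508 to 0.881 from edgeR. The rRNA ENSRNOT00000070337.1 was higher by 1.19 (SE 0.52).

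The most abundant row of each remaining class differed by little. For rRNA it was ENSRNOT00000072497.2, at 7229 to 12464 in F0_SAL and 6320 to 34765 in F0_MOR (medians 8675 and 8531), whose log2 fold change of 0.42 (SE 0.28) was 0.00618 without F0_MOR library N, the highest. The rows of misc_RNA (ENSRNOT00000082705.1, 0.13), lincRNA (ENSRNOT00000087930.1, 0.08), pseudogene (ENSRNOT00000057567.3, 0.05), sense_intronic (ENSRNOT00000093328.1, 0.11), processed_transcript (ENSRNOT00000063902.2, -0.10), snoRNA (ENSRNOT00000079504.1, -0.08), antisense (ENSRNOT00000092826.1, -0.18) and miRNA (ENSRNOT00000088142.1, -0.21) had log2 fold changes smaller than their SEs.

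The same contrast was read at the abstinent timepoint, in other males. Of the 23 miRNAs with an unadjusted p under 0.05 between F0_MOR and F0_SAL, 10 had the same sign between F0_ABS-MOR and F0_ABS-SAL and 0 had a larger log2 fold change there. rno-miR-151-5p had 0.05 (SE 0.31) in place of 0.93, rno-miR-652-3p -0.07 (SE 0.24) in place of 0.69, rno-miR-30e-5p -0.05 (SE 0.20) in place of -0.47, and rno-miR-9a-3p -0.52 (SE 0.36) in place of 0.73. Since the 23 were chosen for a large value at one timepoint, smaller values at the other do not by themselves show a difference between the timepoints. The difference between the timepoints was tested as an interaction. It was called for 0 of 317 miRNAs and 0 of 409 ncRNA rows with edgeR, with an unadjusted p under 0.05 for 10 and 13. DESeq2, given 562 miRNAs and 2086 rows with no filter beforehand, also called 0 of each. The snoRNA ENSRNOT00000083185.1 had -0.17 (SE 0.44) after abstinence, and ENSRNOT00000069393.1 had 0.74 (SE 0.78). Of the 14 ncRNA rows with an unadjusted p under 0.05, 3 had the same sign at the abstinent timepoint. Over all tested features, the log2 fold changes of the timepoints had a Spearman correlation of 0.02 for miRNAs and 0.01 for ncRNAs.

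**Figure D5:**
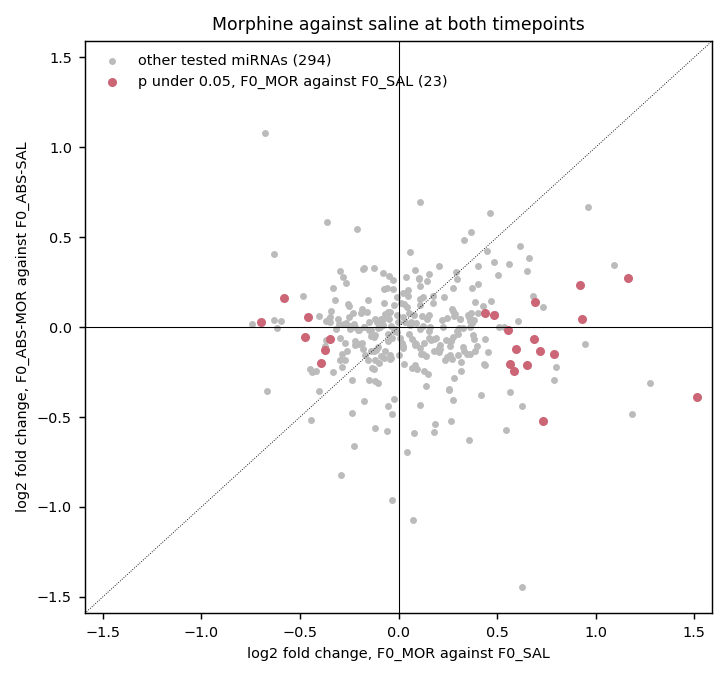
Log2 fold change of morphine against saline at the abstinent timepoint (vertical axis) and without abstinence (horizontal axis) for 317 miRNAs, with the 23 at an unadjusted p under 0.05 without abstinence in red and the line of equal values dotted. The red points lie between -0.52 and 0.27 on the vertical axis.

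The make-up of the libraries was also compared between the groups, for differences only, and likeness was not tested. Of 8 measures, which were the miRNA and ncRNA counts, the share of miRNAs among all counts, the number of miRNAs and of ncRNA rows detected in libraries thinned to equal depth, the shares of the largest and of the 10 largest miRNAs and the share of 5p strands, 0 differed in two-sided exact permutation tests (smallest adjusted p = 0.372). The 10 largest miRNAs took 68.6% to 79.6% of the miRNA counts in F0_SAL (median 74.2%) and 68.8% to 74.7% in F0_MOR (median 73.3%). At equal depth 346 to 380 miRNAs (median 364) and 350 to 394 (median 376) were detected. The spread between males was similar, with a median SD of log2 CPM over miRNAs of 0.46 in F0_SAL and 0.45 in F0_MOR, and of 0.75 and 0.82 over ncRNAs. The median Spearman correlation of a pair of libraries over miRNAs was 0.972 within F0_SAL, 0.969 within F0_MOR and 0.970 between them.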

How the data were processed

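The authors counted small RNA reads of sperm with sRNAbench, after removal of adaptors, first on mature miRNAs of miRBase 22 and then, for the reads left, on ncRNAs of Ensembl 104 in the rat genome (Rnor_6.0; rn6 per the labels), with at most 1 mismatch and at least 2 reads per entry, and deposited unnormalized read counts per library. Columns carry a library letter, a drug code and REG or TO; REG was taken as nonabstinent, which the group sizes of 7, 7, 5 and 6 match, and libraries were assigned to groups only.

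Here 3804 ncRNA transcripts were reduced to 2086 rows of distinct counts. Counts were analysed in R 4.3.3 with edgeR 4.0.16: filterByExpr over the 4 groups, TMM factors, and 1 quasi-likelihood model with the 4 groups and 25 libraries for each table (562 miRNAs, of which 317 were tested, 409 ncRNA rows and 232 seed families). The standard error is the log2 fold change divided by the square root of F, an approximation. Seeds came from RefSeq sequences of GRCr8, which 519 miRNAs matched. Arm ratios, log2 with a pseudocount of 2, were tested with limma 3.58.1, and single values over libraries with two-sided exact permutation tests (smallest p possible 0.000583). The tests were tried on simulated counts. DESeq2 1.42.0, limma-voom, other scalings and filters, log2 total count as a covariate and the removal of single libraries were alternatives, and near copies reduced to 1 was added after seeing the data.

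Named are rno-miR-150-5p and the snoRNA ENSRNOT00000083185.1, the 15 miRNAs, 10 ncRNA rows, 10 seed families and 3 arm ratios with the smallest p, the 10 most abundant miRNAs and 5 seed families, and for each list or class its most abundant member and, for miRNA lists, the one with the smallest p; rows named beyond this were chosen after their values were seen. The comparison, the lists and the rule were chosen with earlier results of these data known.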

Additional observations from a re-analysis of the deposited data

Results flagged for a closer look

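In 3 of 98 groups of 7 values checked, 1 library stood apart from the others of its group by Dixon's criterion at the 95% level, which chance alone gives in about 1 of 20 groups. The ncRNA counts of F0_SAL library O were 6198331, with the next library at 3245476. The rRNA share of F0_MOR library N was 22.7% of the ncRNA counts, with the next at 9.19%. The erythroid markers of F0_SAL library V took 0.211% of the miRNA counts, with the next at 0.117%.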

How the results depend on the processing

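Counts of calls moved as follows. For miRNAs, limma-voom with quality weights called 1 (rno-miR-150-5p), and with each library left out the count was 0 to 1, the 1 being rno-miR-150-5p without F0_SAL library H. For ncRNAs, DESeq2 and DESeq2 size factors called 1 each (ENSRNOT00000083185.1, adjusted p 0.0336 and 0.0968), and no filter called 4, the 2 mitochondrial rRNAs and 2 rRNAs; without a filter the interaction called 1, ENSRNOT00000040038.3. Class shares that differed numbered 0 to 2 with each library left out, misc_RNA and processed_transcript without library H. For seed families, arm ratios, library make-up and the miRNA interaction, the alternatives run called 0. The spread between libraries was larger for ncRNAs than for miRNAs, with common dispersions of 0.274 and 0.111, and transcripts at a few counts, such as rno-miR-490-3p, are also limited by depth. No paired analysis was possible because the columns carry letters and no replicate number, and no label ties a letter to a sample. Medians read against that of all transcripts were added after seeing the data. The cause of the changes was not tested.

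Log2 fold changes near 0 turned sign. With total count they were 0.13 for rno-let-7g-5p, 0.063 for rno-miR-21-5p, 0.14 for rno-miR-34b-3p, 0.13 for rno-miR-143-3p, 0.10 for rno-miR-30c-5p and rno-miR-25-3p, 0.12 for rno-miR-29a-3p, 0.088 for rno-miR-103-3p, 0.079 for rno-miR-107-3p, 0.21 for ENSRNOT00000092826.1, 0.20 for ENSRNOT00000088142.1, 0.16 for ENSRNOT00000063902.2, 0.31 for ENSRNOT00000077425.1, 0.34 for ENSRNOT00000079504.1 and 0.071 for AGCUUAU. With joint TMM factors they were -0.013 for rno-miR-99a-5p, -0.00173 for rno-miR-16-5p, 0.000382 for ENSRNOT00000088142.1, 0.082 for ENSRNOT00000077425.1 and 0.11 for ENSRNOT00000079504.1. With no filter they were -0.00839 for rno-miR-99a-5p and -0.00623 for rno-miR-16-5p. With log2 total count as covariate they were 0.028 for rno-miR-34b-3p, -0.089 for rno-miR-99a-5p, -0.042 for rno-miR-148a-3p, 0.024 for rno-miR-29a-3p, 0.011 for ENSRNOT00000092826.1, -0.031 for ENSRNOT00000087930.1, -0.052 for CAGUGCA and -0.063 for GAGGUAG. With copies reduced over the 14 libraries ENSRNOT00000079504.1 had 0.014, and with limma-voom GAGGUAG had -0.0076. With each library left out the ranges were -0.017 to 0.13 for rno-let-7f-5p, -0.073 to 0.19 for rno-miR-99a-5p, -0.091 to 0.15 for rno-miR-148a-3p, -0.061 to 0.10 for rno-miR-16-5p, -0.37 to 0.085 for rno-miR-25-3p, -0.012 to 0.17 for rno-miR-29b-3p, -0.41 to 0.048 for ENSRNOT00000092826.1, -0.13 to 0.28 for ENSRNOT00000087930.1, -0.27 to 0.062 for ENSRNOT00000088142.1, -0.24 to 0.11 for ENSRNOT00000063902.2, -0.00925 to 0.34 for ENSRNOT00000057567.3, -0.16 to 0.087 for ENSRNOT00000077425.1, -0.14 to 0.13 for ENSRNOT00000079504.1 and -0.011 to 0.14 for GAGGUAG. The other transcripts, families and arm ratios named by the rule given with the processing kept their sign under the alternatives run. For those named beyond that rule, the sign was not followed over the alternatives.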
